A study of Mus musculus with 2 samples.

Results

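The retinoid genes described here make, bind or break down retinoic acid: Adh1, Rdh10, Dhrs3, Aldh1a1, Aldh1a2, Aldh1a3, Crabp1, Crabp2 and Cyp26b1. They were taken as all probe sets whose only gene symbol in the array annotation is 1 of these 9 names. That gave 12 probe sets among the 34945 on the array that carry a single gene name, or among 45101 in all. RNA came from whole ovaries of newborn mice at 2 days of age, with equal amounts from 8 animals joined into 1 pool per genotype and 1 array per pool. The control pool was Amhr2(+/+)-SmoM2 and the mutant pool Amhr2(cre/+)-SmoM2. Both genotypes carry SmoM2, an activated form of the hedgehog transducer Smoothened. Only the mutant carries Cre, at 1 copy of Amhr2, the locus of the receptor for anti-Müllerian hormone, which is active in somatic cells of the gonad. Cre, the altered Amhr2 copy and SmoM2 activity cannot be told apart here. The comparison asks which genes differ in the newborn ovary when hedgehog signalling is switched on in somatic cells. With 1 array per genotype there is no replicate error and no test, and every difference below describes these 2 pools only. The members were chosen with their values in this comparison known, so their differences are a description.

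Retinol, the circulating form of vitamin A, is oxidised to retinal by retinol and alcohol dehydrogenases, and retinal is oxidised to retinoic acid by retinaldehyde dehydrogenases. Retinoic acid enters the nucleus with the help of small binding proteins and activates the receptors RAR and RXR. Enzymes of the Cyp26 family oxidise it further and so limit how far it reaches. In the fetal gonad retinoic acid is known for its part in the entry of germ cells into meiosis, and Cyp26b1 for protecting the germ cells of the fetal testis from it.

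Adh1 stood out, with a signal 58.6-fold higher in the mutant pool. Cyp26b1, which degrades retinoic acid, was 3.79-fold higher, and Aldh1a3, which makes it, was 3.56-fold higher on its only probe set bright enough to count. Crabp1, a cytoplasmic retinoic acid binding protein, was 1.81-fold lower. Rdh10, Aldh1a1 and Aldh1a2 differed by less than 1.5-fold on their brightest probe sets.

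The promoters of Adh1 and Cyp26b1, the members with the 2 highest log2 ratios, and of Crabp1, the member with the lowest, are shown because these genes differed in opposite directions. Each run is the 250 bases before the annotated start, 5′ to 3′ on the strand of the gene, from RefSeq on GRCm38.p6. Adh1 lies on the plus strand (chr3:138277335-138277584), Cyp26b1 on the minus strand (chr6:84593811-84594060) and Crabp1 on the plus strand (chr9:54764498-54764747). Capitals mark matches to the TATA box, searched as TATAAA, and to the GC box, searched as GGGCGG, on either strand.
Adh1: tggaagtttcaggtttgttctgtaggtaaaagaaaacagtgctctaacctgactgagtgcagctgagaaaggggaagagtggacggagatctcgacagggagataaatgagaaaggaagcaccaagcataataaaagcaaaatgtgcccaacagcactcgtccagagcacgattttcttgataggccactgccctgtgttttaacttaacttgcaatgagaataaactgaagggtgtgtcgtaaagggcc
Cyp26b1: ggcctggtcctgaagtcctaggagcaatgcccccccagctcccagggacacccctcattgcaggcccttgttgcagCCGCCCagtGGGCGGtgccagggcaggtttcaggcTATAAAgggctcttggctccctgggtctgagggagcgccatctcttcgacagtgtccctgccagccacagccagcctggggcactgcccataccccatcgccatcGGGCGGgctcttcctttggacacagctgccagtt
Crabp1: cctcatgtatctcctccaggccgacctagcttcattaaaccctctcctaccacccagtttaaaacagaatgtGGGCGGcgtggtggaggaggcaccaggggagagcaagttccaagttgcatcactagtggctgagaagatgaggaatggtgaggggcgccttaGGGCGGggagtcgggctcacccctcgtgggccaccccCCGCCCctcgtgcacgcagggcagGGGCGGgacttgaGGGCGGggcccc
The Adh1 promoter held none of the motifs searched and had 5 CpG dinucleotides and a GC content of 44.8%. The Cyp26b1 promoter held 3 GC boxes and 1 TATA box, which lies 139 to 134 bases before the annotated start, with a GC content of 64.8%. The Crabp1 promoter held 5 GC boxes and had a GC content of 63.6%. Over all 32851 promoters of this table the median GC content was 52.4%, and 32.7% held a GC box and 12.4% a TATA box.

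Sequences matched 6 of the 9 members by symbol, with 9 promoters in all, because Aldh1a1 and Dhrs3 have several annotated starts. The retinoic acid receptor half-site AGGTCA was in 0 of these 9 promoters and in 14.0% of all promoters. Direct repeats of this half-site with 5 or with 2 bases between the copies were in 0 of the 9 as well, and each kind was in 3 of the 32851 promoters. The Gli site GACCACCCA and the steroidogenic factor 1 site CAAGGTCA, which contains the half-site, were in 0 of the 9 and in 0.225% and 1.33% of all promoters. The CCAAT box was in 4 of the 9, belonging to Aldh1a1, Aldh1a2 and Dhrs3, and in 33.8% of all. The Dhrs3 promoters with a CCAAT box overlap and share a site, so that site is counted in both. All motifs were searched on both strands and letter by letter. These matches describe letters in a short window and say nothing about which factors bind.

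Probe sets were taken as measured where at least 1 of the 2 signals reached 80.7, the median signal of both arrays together. Of the 12 probe sets of the members, 9 were measured, and they covered 8 of the 9 genes. Crabp2, the other cytoplasmic retinoic acid binding protein, had a single probe set with a signal of 50.2 in control ovaries and 52.6 in mutant ovaries, both under the minimum. Log2 ratios of mutant to control use signals raised by 22.2, the 25th percentile of both arrays together, and therefore understate differences of dim genes. Fold values are plain ratios of the signals. Signals of different probe sets depend on the probes and are not set against each other.

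**Figure D1:**
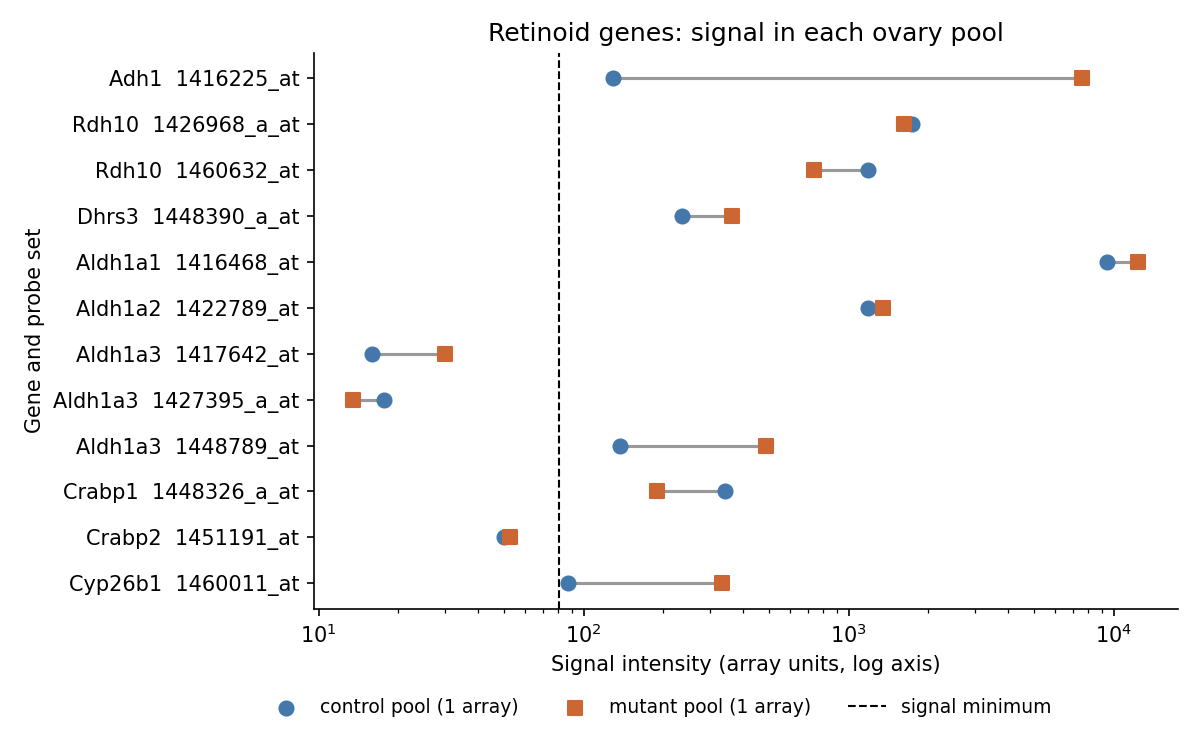
Signal intensity (log axis) of the 12 probe sets of the retinoid genes in the control pool (circles) and the mutant pool (squares), 1 array each, with the signal minimum of 80.7 as a dashed line. Adh1 spans from 129 to 7587, and 3 probe sets lie under the minimum in both pools. Only the 2 points within a row are comparable.

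At 2-fold or more on the log2 scale, 3 of the 9 measured probe sets of the members were higher in the mutant pool and 0 were lower. Among all 20576 measured and named probe sets, 595 (2.89%) were that much higher and 420 (2.04%) that much lower. With the mutant array scaled instead on the spiked hybridization controls, those 2 counts were 355 and 915, and the members still had 3 and 0. By gene, with the brightest measured probe set standing for each gene, 3 of 8 members were at least 2-fold higher and 0 were lower by as much. Of the 12308 measured genes, 3.21% and 1.4% were. At 1.5-fold, 3 of 8 were higher and 1 was lower, where 9.32% and 7.9% of all measured genes were. The members were picked from this contrast, so their share is not evidence about them. Their median log2 ratio was 0.48, and that of all measured genes was -0.02.

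The enzymes that turn retinol into retinal and back differed widely among themselves. Adh1 (Entrez gene 11522), an alcohol dehydrogenase that also oxidises retinol, had a signal of 129 in control ovaries and 7587 in mutant ovaries. Its log2 ratio was 5.65. Both signals lay above the minimum, so the ratio is not a bound, and it was the highest of the 11323 genes with both signals at the minimum. Over all 12308 measured genes Adh1 stood at rank 5 from the top. Genes above it include Cyp17a1 (38.8 and 7532) and Cyp11a1 (29.6 and 5700), whose control signals lay under the minimum. However, Adh1 has 1 probe set and no second one to set beside it. Rdh10 (98711), the retinol dehydrogenase that carries out this step in the embryo, had signals of 1736.5 in control ovaries and 1620 in mutant ovaries on its brighter probe set. Its log2 ratio there was -0.10. The second Rdh10 probe set read 1178.5 and 741, lower in the mutant pool by 1.59-fold, with a log2 ratio of -0.65. Both log2 ratios of Rdh10 thus lay under 0 and differed in size. That of the brighter probe set was near the median of all measured genes, -0.02. Dhrs3 (20148), which reduces retinal back to retinol, had signals of 236 in control ovaries and 362 in mutant ovaries. That is 1.54-fold higher, and its log2 ratio of 0.58 fell just short of 1.5-fold on the log2 scale. The difference between the log2 ratios of Adh1 and Rdh10 was 5.75.

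These arrays offer no replicate error, only the spread between probe sets of the same gene, which can also hold differences between transcripts. Its SD on the log2 ratio was 0.38 over 13386 measured probe sets of 5118 genes, and it ran from 0.48 in the dimmest of 4 equal parts by signal to 0.32 in the brightest. It holds no variation between animals, pools or hybridisations, and is no test of the members.

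**Figure D2:**
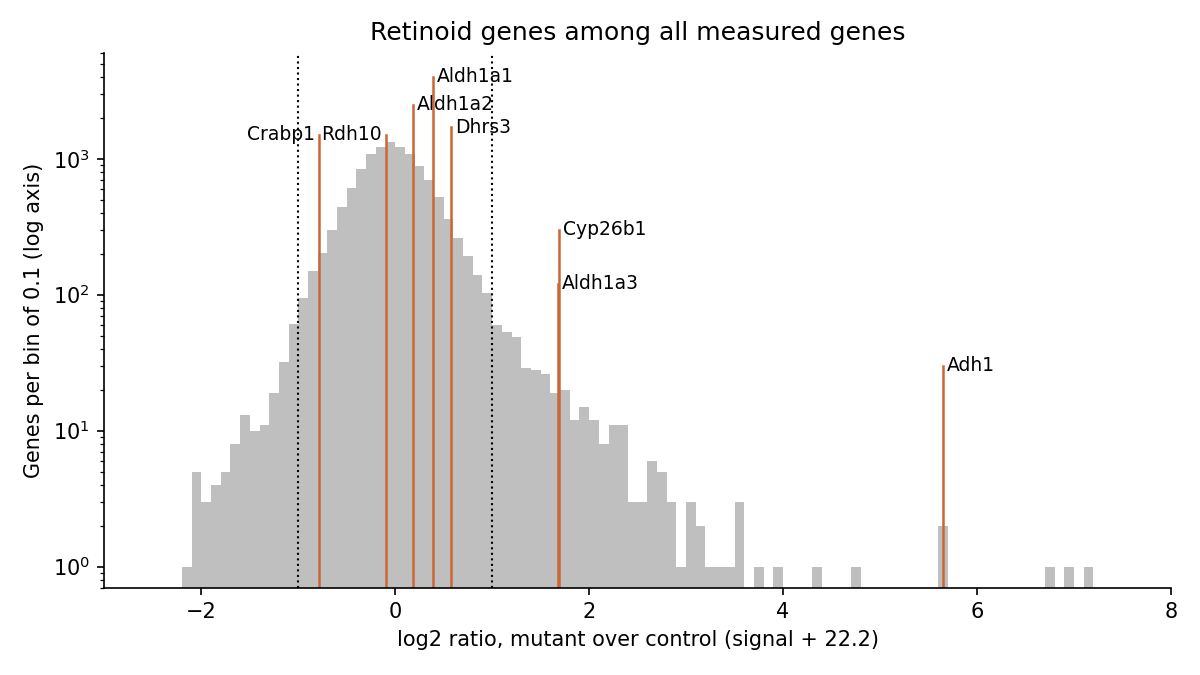
Number of measured genes per bin of 0.1 in the log2 ratio of mutant to control (grey, log axis), with the 8 measured retinoid genes as vertical lines and 2-fold as dotted lines; the heights of the lines only separate the names. Adh1 lies far to the right at 5.65, Cyp26b1 and Aldh1a3 nearly coincide at 1.69 and 1.68, and the other 5 lie within 2-fold.

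The retinaldehyde dehydrogenases, which make retinoic acid itself, did not differ alike. Aldh1a1 (11668) had signals of 9439 in control ovaries and 12372 in mutant ovaries, 1.31-fold higher. Aldh1a2 (19378), the main source of retinoic acid in the embryo, had 1182 and 1343, 1.14-fold higher. Its log2 ratio of 0.18 became -0.04 with scaling on the spiked controls, so it has no settled direction. Aldh1a3 (56847) had signals of 137 in control ovaries and 489 in mutant ovaries on its measured probe set, a log2 ratio of 1.68. Its other 2 probe sets read 15.9 and 17.7 in the control and 29.9 and 13.5 in the mutant pool, all under the minimum. The difference of Aldh1a3 thus rests on 1 of its 3 probe sets. Why the other 2 were dim in both pools was not tested. The log2 ratio of Aldh1a3 exceeded that of Aldh1a1 by 1.29. Among the 11323 genes with both signals at the minimum, Aldh1a3 stood at rank 60 from the top, Aldh1a1 at 1637 and Aldh1a2 at 3263. Over all 12308 measured genes these ranks were 135, 2047 and 3761.

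Cyp26b1 (232174), the hydroxylase that clears retinoic acid, had signals of 87.5 in control ovaries and 332 in mutant ovaries on its only probe set. The control value lay just above the signal minimum of 80.7. Its log2 ratio of 1.69 stood at rank 58 of those 11323 genes and at rank 132 of all 12308 measured genes. It exceeded the log2 ratio of Aldh1a3 by 0.01. Cyp26a1, another member of this enzyme family, read 38.4 in control ovaries and 7.5 in mutant ovaries, both under the minimum. Cyp26c1 had no named probe set.

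The retinoic acid binding proteins gave 1 measured value. Crabp1 (12903) had signals of 342 in control ovaries and 189 in mutant ovaries, a log2 ratio of -0.79, at rank 273 from the bottom of those 11323 genes. Over all 12308 measured genes Crabp1 stood at rank 434 from the bottom. Fabp5, a fatty acid binding protein that can also carry retinoic acid, had log2 ratios of 0.34 and 0.61 on its 2 probe sets. Its signals were 5917 against 7506 and 590 against 913, control before mutant.

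A wider list of 43 other retinoid pathway genes was drawn from uptake, storage, conversion, receptors and cofactors. Of these 36 had a named probe set and 20 were measured. The 16 that were not measured had signals between 1.0 and 64.0. At 1.5-fold or more on the log2 scale 1 of the 20 was higher and 4 were lower, where 9.32% and 7.9% of all measured genes were. With dim values raised to the signal minimum these counts were 2 and 3. Rxra, with a plain signal ratio of 1.53, was then counted as higher. The signal of Rdh9 does not reach 1.5-fold over the minimum. The median log2 ratio was 0.09, beside -0.02 for all measured genes.

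Among genes of uptake and storage, Bco1, which cleaves beta-carotene into retinal, had signals of 321 in control ovaries and 121 in mutant ovaries. That is 2.65-fold lower, with a log2 ratio of -1.26. Dgat1, an acyltransferase that can esterify retinol, had 438 and 251, 1.75-fold lower. Lrat, the main enzyme that stores retinol as esters, had 48.6 in control ovaries and 131 in mutant ovaries, at least 1.62-fold higher against the signal minimum. A second Lrat probe set read 14.4 and 7.3, under the minimum. Stra6, the membrane receptor for retinol carried in blood, had 72.6 and 103, at least 1.27-fold higher. Rbp4, the carrier in blood, had 341 and 324, with a log2 ratio of -0.07. These genes therefore differed in both directions.

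Among the other retinol and retinal converting enzymes, Rdh5 had 124 in control ovaries and 62.6 in mutant ovaries, at least 1.53-fold lower. Rdh9 had 92.8 and 45.4, at least 1.15-fold lower, on a probe set that can detect several transcripts. Rdh11, Rdh13, Rdh14, Dhrs4 and Dhrs7 lay between -0.04 and 0.43 on the log2 scale for their brightest probe sets. None of the 5 reached 1.5-fold on any measured probe set.

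**Figure D3:**
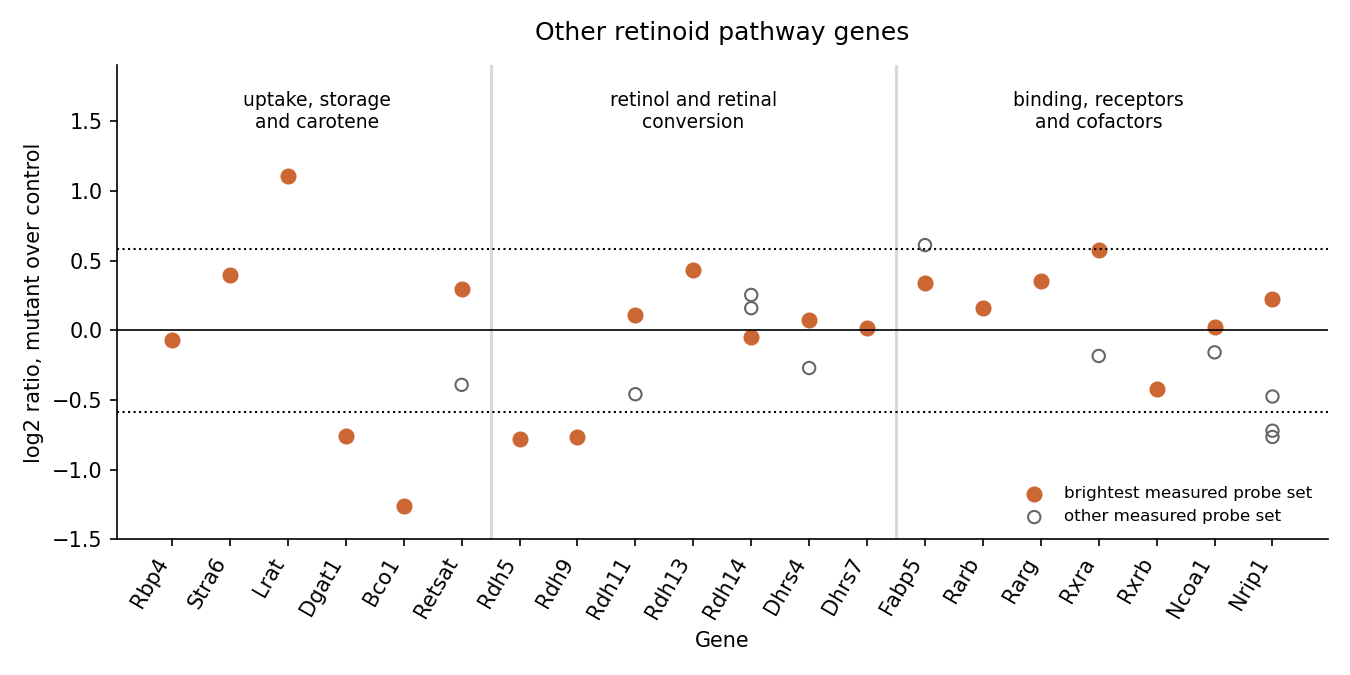
Log2 ratio of mutant to control for the 20 measured genes of the wider retinoid list, by role, with the brightest measured probe set filled and other measured probe sets open; dotted lines mark 1.5-fold. Lrat lies at 1.11 and Bco1 at -1.26, and the receptors stay inside 1.5-fold on this scale.

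The receptors gave 4 measured genes of 6. Rxra had signals of 320 in control ovaries and 488.5 in mutant ovaries, 1.53-fold higher. Its log2 ratio of 0.58 fell just short of 1.5-fold on the log2 scale, and its other measured probe set gave -0.18. Rxrb had 744 and 550, with a log2 ratio of -0.42. Rarb, which retinoic acid itself induces, had 123 and 140, with a log2 ratio of 0.16. Rarg had 62.1 and 85.8, close to the minimum. Rara and Rxrg stayed under the minimum, with signals up to 9.5. At 1.5-fold on the log2 scale 0 of the 4 were higher and 0 lower, where 9.32% and 7.9% of all measured genes were. With 4 genes this says little about the receptors.

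Genes known to respond to retinoic acid formed a list of 25, of which 22 had a named probe set and 17 were measured. The list shares 6 genes with the wider pathway list, among them Lrat and Rarb, and none with the members. At 1.5-fold on the log2 scale 2 of the 17 were higher and 1 was lower, where 9.32% and 7.9% of all measured genes were, and the median log2 ratio was 0.11. With dim values raised to the signal minimum 0 were lower, since the 1 below, Ret, is shown only to be at least 1.39-fold lower. The 2 that were higher were Lrat and Hoxa5. Hoxa5, a homeobox factor, had signals of 173 in control ovaries and 301 in mutant ovaries, with a log2 ratio of 0.73, and 0.30 on its other probe set. Tgm2 had 6411 in control ovaries and 9426 in mutant ovaries on its brightest probe set. Its log2 ratio of 0.55 fell just short of 1.5-fold on the log2 scale. Its other measured probe sets gave 0.71, 0.59 and 0.27, higher in the mutant pool, and -0.75. The last of these had signals of 90.2 in control ovaries and 44.6 in mutant ovaries, at least 1.12-fold lower against the signal minimum. Ret, the receptor of glial cell line-derived factors, had 112 and 63.5, at least 1.39-fold lower. Stra8, the meiotic entry gene that retinoic acid induces, read 64.7 in control ovaries and 45 in mutant ovaries, both under the minimum. Rec8, a meiotic cohesin, had 114 and 87.5, a log2 ratio of -0.31.

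The other alcohol and aldehyde dehydrogenases were set beside Adh1 and the Aldh1a enzymes as relatives. Of the 23 listed, 16 were measured. At 1.5-fold, 4 were above the control and 1 was below it, where 9.32% and 7.9% of all measured genes were, and the median log2 ratio was 0.21. Adh5, the class III enzyme, had signals of 11726 in control ovaries and 13057 in mutant ovaries, with a log2 ratio 5.49 below that of Adh1. The 5 probe sets of Adh4, Adh6a, Adh6b and Adh7 read between 2.0 and 59.3, all under the minimum in both pools. Aldh1a7, a close copy of Aldh1a1 whose probes could share its RNA, had 843 and 1298, a log2 ratio of 0.61. Aldh3b1 had 48.9 and 167, at least 2.07-fold higher. Aldh18a1 and Aldh6a1 had log2 ratios of 0.70 and 0.59 on their brightest probe sets, and the 5 measured probe sets of Aldh18a1 ranged down to 0.09. Aldh4a1, a mitochondrial enzyme of proline breakdown, had 139 and 64.9, at least 1.72-fold lower.

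Markers of ovarian cell types differed between the pools beside these genes, and their part in the retinoid values was not tested. In RNA of whole ovaries, fewer cells of a type and less RNA per cell cannot be told apart. For comparison, the shares over all measured genes were 3.21% upward and 1.4% downward at 2-fold, and 9.32% and 7.9% at 1.5-fold. Of all 12308 measured genes, 6456 had log2 ratios under 0 and 5848 above 0. Of 7 measured markers of steroid-producing cells, 6 were at least 2-fold higher, and the median log2 ratio of the 7 was 2.34. Of 6 measured interstitial progenitor markers, 5 were at least 1.5-fold higher, and the median log2 ratio of the 6 was 0.83. The lowest of the 6 lay at -0.46. All 10 oocyte markers had log2 ratios under 0, from -1.21 to -0.24, with a median of -0.62. The 5 measured meiotic markers were also all under 0, with a median of -0.81. Of 9 measured pregranulosa markers, 6 were at least 1.5-fold lower and 2 lay above 0, the highest at 0.52, and Amh stayed under the minimum. Among the 6 is Amhr2, the locus altered in the mutant, and without it 5 of 8 were. Of 4 measured adrenal cortex markers, 2 passed 2-fold upward on the log2 scale. Cyp11b2 stayed under the minimum. Both of the 2 had control signals under the minimum, so their folds are lower bounds. For Cyp21a1, with signals of 11.2 in control ovaries and 117 in mutant ovaries, this bound was 1.44-fold, short of 2-fold. For the other it was 3.33-fold. Mesonephros and Müllerian duct markers went both ways, from -0.93 to 1.10. Median log2 ratios were -0.25 for surface epithelium, 0.57 for endothelium and 0.51 for leukocytes. None of the 4 adipocyte markers with a probe set was measured, with signals up to 38.9. Of the 4 liver markers with a probe set only Alb was measured, at 48.8 in control ovaries and 93.0 in mutant ovaries. Of 4 kidney markers only Umod was, at 141 and 122.

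**Figure D4:**
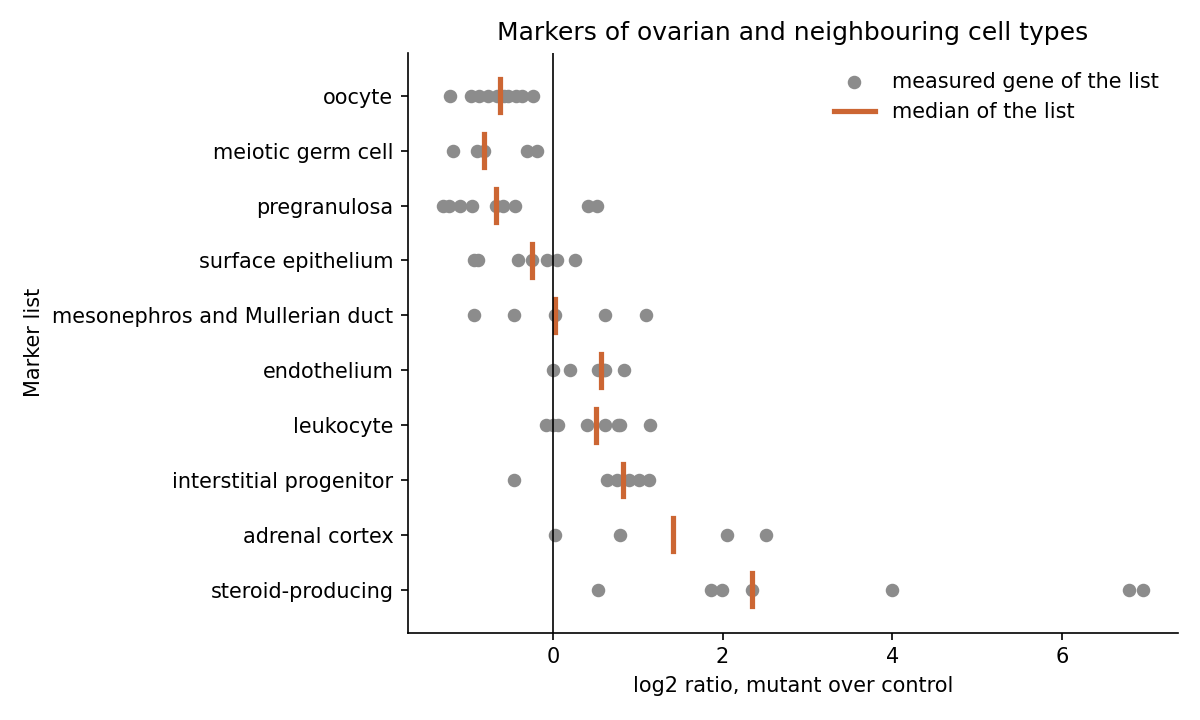
Log2 ratio of mutant to control for each measured gene (points) of 10 marker lists, with the median of the list as a bar. Oocyte and meiotic genes lie under 0, and steroid-producing genes lie above 0 with a median of 2.34.

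Both arrays share a common scale, with a trimmed mean signal of 500.003 each. The share of probe sets at the signal minimum was 50.3% on the control and 49.8% on the mutant array. The ratio of 3′ to 5′ signal was 8.48 in control ovaries and 10.5 in mutant ovaries for beta-actin, and 3.28 and 4.98 for Gapdh. For both genes it was higher in the mutant pool, and how far this affects the ratios of single probe sets was not tested. The 18 probe sets of the spiked controls had a median log2 ratio of 0.23. Scaling on them moved the median log2 ratio of all genes from -0.02 to -0.25. On that scale Adh1 stood at 5.42, Cyp26b1 at 1.48, Aldh1a3 at 1.46 and Crabp1 at -0.99.

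The log2 ratios of Adh1, Cyp26b1, Aldh1a3, Crabp1, Dhrs3, Aldh1a1 and Rdh10 kept their sign in every alternative that gave them a value. Adh1 ranged from 5.19 to 5.86 over 10 alternatives, Aldh1a3 from 1.39 to 1.83 over 10, and Cyp26b1 from 1.29 to 1.91 over 9. All of these stayed past 2-fold. Crabp1 ranged from -0.99 to -0.65 over 8 alternatives and stayed within 2-fold. Rdh10 moved most in relation to its size, from -0.65 to -0.05, because its second probe set replaces the first when probe sets shared between transcripts are left out.

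**Figure D5:**
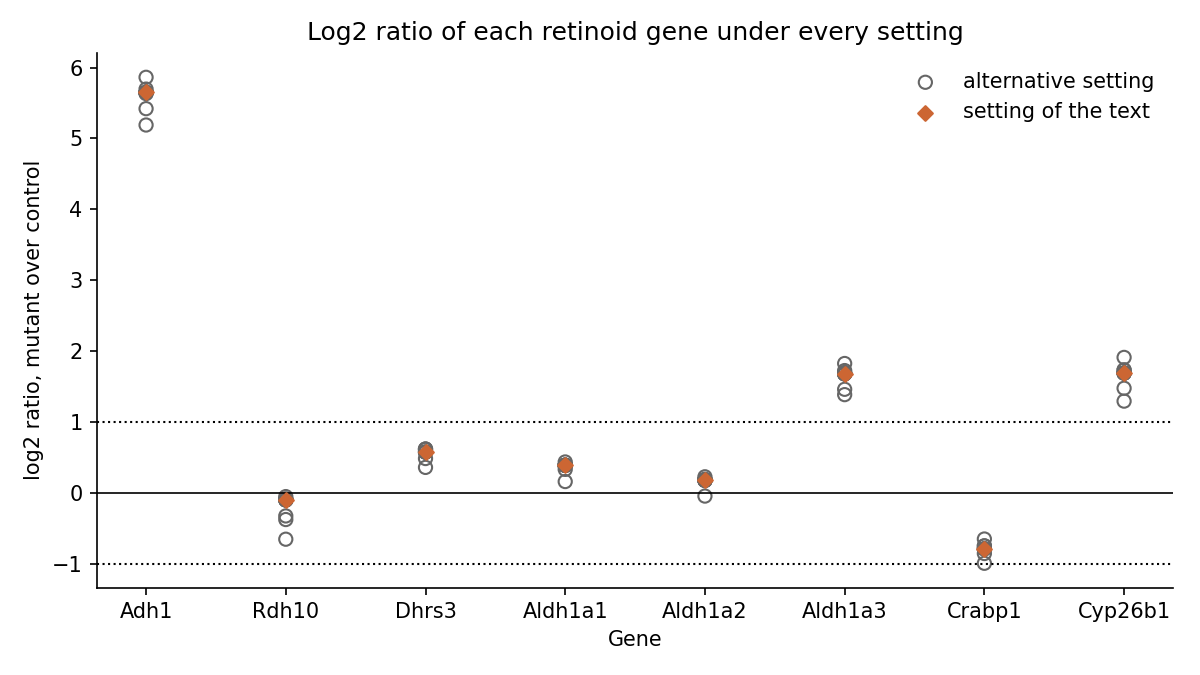
Log2 ratio of mutant to control for the 8 measured retinoid genes under the setting of the text (diamonds) and under each alternative (open circles); dotted lines mark 2-fold. Adh1, Aldh1a3 and Cyp26b1 stay above 1 under the alternatives shown, and Aldh1a2 lies on both sides of 0.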

How the data were processed

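Pooled RNA was made into biotin-labelled cRNA by Affymetrix protocols, per the labels' protocols, with 1 array per pool. The authors deposited linear signal intensities, 1 per probe set and array, with GCOS named in the submitters' processing notes. For its settings and scaling, the sources used here give no detail, and detection calls were not used. The values were used as deposited.

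Gene names came from the platform annotation: 34958 probe sets had 1 symbol, 932 several and 9211 were not listed. The 64 array controls were kept out, 13 of them with 1 symbol, which left 34945. All 12 probe sets of the members matched a RefSeq table by Entrez ID, with 0 differing symbols. The array annotation names no build, so the only coordinates given are those of the RefSeq promoters.

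Log2 ratios, counts and the spread between probe sets were computed with Python 3.11.15, NumPy 2.4.6 and pandas 2.3.3, and tested on simulated data. The 10 alternative settings varied the pseudocount, signal minimum, scaling and probe sets. The members and lists were chosen with earlier results of these data known. Named are all members, up to 6 genes at 1.5-fold per list, all RAR and RXR receptors and, for the 3 members with the largest log2 ratios, the genes next in rank. Up to 2 markers were named per cell type. Other genes of the lists were named after their values were seen, and genome neighbours by position. The number of arrays, 1 per group, limits the precision of every value.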

Additional observations from a re-analysis of the deposited data

How the results depend on the processing

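The counts of members at 2-fold were 3 higher and 0 lower in the text. They stayed so under the alternatives run, except that 2 were higher when the minimum was set at the 75th percentile, 442, where Cyp26b1 is no longer measured. No direction of a member past 2-fold reversed. Leaving out probe sets shared between transcripts moved the median log2 ratio of the members from 0.48 to 1.035, since it removes Crabp1 and Dhrs3. Over all named probe sets, 595 were 2-fold higher and 420 lower. These counts were 342 and 131 with the larger pseudocount, 258 and 120 with the minimum at the 75th percentile, 1208 and 1098 with no minimum, 326 and 209 with both values at the minimum, and 355 and 915 with scaling on the spiked controls. Other pathway genes at 1.5-fold (1 higher, 4 lower) became 2 lower with the larger pseudocount, 2 higher and 3 lower with dim values raised to the minimum, 0 and 0 with the minimum at the 75th percentile, and 5 and 9 with no minimum. They became 0 and 2 with both values at the minimum, 2 higher with median scaling and with quantile normalization, and 2 and 2 without shared probe sets. Retinoic acid targets (2 higher, 1 lower) became 0 lower with the larger pseudocount or with dim values raised, 0 and 0 with the minimum at the 75th percentile, and 2 lower with no minimum. They became 1 and 0 with both values at the minimum, 1 higher with scaling on the spiked controls or without shared probe sets, and 1 and 2 with the median over probe sets. The cause of these moves was not tested. Of all values recomputed under an alternative, 134 stayed within 1.5 times (counts) or within the SD between probe sets (log2 values), and 37 did not. No paired analysis was possible because each genotype has 1 array. Signal over the minimum limits Cyp26b1 in the control and Crabp2 in both pools.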

Other observations

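With 1 array per pool, a pattern over samples is a single ratio, and no gene can be shown to be most like a member. In the order of log2 ratios over 12308 measured genes, Adh1 stood between Ibsp, a bone matrix sialoprotein (2.1 in the control, 1199 in the mutant pool), and Oxtr, the oxytocin receptor (6.2 and 732). Cyp26b1 stood between Cyp51, an enzyme of cholesterol synthesis (410 and 1381), and Ntn1, a secreted guidance cue (62.7 and 251). Aldh1a3 stood between Lyve1, a hyaluronan receptor of lymphatic endothelium and macrophages (106 and 388), and Ifitm5 (11 and 83.9). The control signals of Ibsp, Oxtr, Ntn1 and Ifitm5 lay under the minimum, so the pseudocount sets their places. Cyp51 and Lyve1 had both signals above it.

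The protein-coding genes on either side of each member in the RefSeq order were named by position, not by value. Adh1 lies between Adh7 and Adh6a, whose probe sets had signals up to 58.6 and 4.5, under the minimum in both pools. Aldh1a1 lies between Anxa1 (log2 ratio 0.35) and its copy Aldh1a7 (0.61), all 3 higher in the mutant pool and under 2-fold. Cyp26b1 lies between Dysf, under the minimum, and Exoc6b, a subunit of the exocyst, with 143 in control ovaries and 234 in mutant ovaries (log2 ratio 0.63). Aldh1a3 lies between Lrrk1 (0.01) and Asb7 (-0.40). Crabp1, which was lower, lies between Wdr61 (0.23) and Ireb2 (0.29), which were not. Aldh1a2 lies between Aqp9, under the minimum, and Polr2m (-0.21). Rdh10 lies between Rpl7 (0.04) and Stau2 (-0.13), and Dhrs3 between Vps13d (0.04) and Tnfrsf1b (0.04). Crabp2, itself under the minimum, lies between Isg20l2 (0.15) and Nes (-0.20). None of these values was tested.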
